A study of Mus musculus with 15 samples.

Results

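The data described here cover 49 neuronal and synaptic genes among the 55228 genes listed in RNA-seq of mouse embryonic stem cells (mESC) with an inducible knockdown of Smarcb1, which encodes a core part of the chromatin remodeller BAF. Members were chosen by symbol: adhesion molecules that bridge the synapse, vesicle proteins, glutamate receptor subunits, postsynaptic scaffolds, calcium and sodium channels, cytoskeletal and growth cone genes, neural adhesion molecules and neuronal RNA-binding proteins. Of the 49, 43 had a mean of at least 10 reads over the 15 libraries and were followed, and 6 fell below that minimum.

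All libraries came from the line 81K1 (based on OG2), 1 clone that carries in its Rosa26 locus an shRNA cassette directed at Smarcb1 and switched on by doxycycline. Doxycycline at 1 µg per ml every day gave the knockdown groups (48 h kd, 72 h kd and 240 h kd), and untreated cells of the same line gave the controls (48 h ctrl and 240 h ctrl), with 3 libraries in each of the 5 groups. The 72 h knockdown has no control of its own and was set against 48 h ctrl, so that the 48 h and 72 h comparisons share their 3 control libraries. The controls carry the shRNA cassette too. Cells given doxycycline but lacking the cassette were not analysed here, so effects of doxycycline and of the knockdown cannot be told apart. The labels do not say that the replicates were separate cultures, so the p-values measure only the spread between these samples, which may be technical.

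Neurons pass signals at synapses, where vesicles fuse with the presynaptic membrane and the released transmitter opens receptors held in place by scaffold proteins on the other side. Embryonic stem cells are not neurons, and many genes of this kind are held at low levels in them until neural differentiation. The transcription factor REST, with its cofactors, is a known repressor of such genes outside neurons, and the BAF complex changes its subunits as stem cells turn into neural progenitors and then neurons.

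The depth behind each value is the library total, inferred from the FPKM as the total that turns them into whole reads. It lay between 11074998 and 14515300 with a median of 12439075. The members together took 0.107% to 0.114% of these reads. A level is given in RPM, the reads over the whole gene span, introns included, per 1000000 reads of the library's total. Reads were counted irrespective of strand, so that a read in a stretch shared by overlapping genes counts for each of them. Where the reads of a gene inside a member are taken off below, any reads of the member itself in that stretch go with them. The values left are thus those of the rest of the span. In the untreated cells the Smarcb1 gene itself stood at 84.7, 86.0 and 97.8 RPM at 48 h and 82.2, 88.3 and 84.5 at 240 h. With doxycycline it stood at 12.5, 20.4 and 15.3 RPM at 48 h, 13.4, 15.9 and 12.7 at 72 h and 17.9, 15.4 and 15.9 at 240 h. Its mean was thus 18.0%, 15.7% and 19.3% of the control mean, and every knockdown library lay below every control library. Mitochondrial reads made up 0.507% to 2.53% of a library, and the library with the highest share was 48 h kd replicate 2. Without that library all 7 member calls at 48 h were kept and 9 members were called. The libraries were those of pluripotent cells by their markers, which summed to between 5183 and 7058 RPM, whereas the proneural and neuronal transcription factors summed to between 22.1 and 51.7.

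The members are long genes at low levels. Their median span was 105 kb, against 17.6 kb for all protein-coding genes listed, and 44 of the 49 were longer than that median. The deposited FPKM are RPM per kb of this whole span, introns included, so that genes with long introns come out lower. The median ratio of span to exonic length was 10.9 for the members and 4.90 for protein-coding genes. On this scale 11 of the 49 members had a mean of at least 0.5. The 5 highest means per kb of span, an order that need not hold per kb of exon, were those of Nefl, the neurofilament light chain (5.72 FPKM), Stmn2, a tubulin-binding protein of growth cones (5.66), Nlgn2, a neuroligin of inhibitory synapses (2.11), Cacnb3, an auxiliary subunit of voltage-gated calcium channels (1.88), and Stmn3, a relative of Stmn2 (1.16). For comparison, the mean of Smarcb1 in 48 h ctrl was 3.60 FPKM. In reads, 26 members had a mean of at least 100 and 3 of at least 1000 (Stmn2, Rbfox2 and Cacna1a), while 12 of the 43 followed had a mean under 50. In bulk samples such as these, fewer cells of a type and less RNA per cell cannot be told apart.

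A gene is called here when its log2 fold change, on the scale log2(RPM + 0.25), lies beyond 0.58 in either direction with an adjusted p under 0.05 in limma, adjusted by Benjamini-Hochberg over the 16370 genes that reached the minimum of reads set for the members. After 48 h of knockdown, 4 of the 43 members were called higher and 3 lower, against 4.26% and 4.78% of all genes tested. After 72 h, 6 were called higher and 13 lower, against 11.7% and 10.0% of all genes. After 240 h, 10 were called higher and 9 lower, against 8.92% and 7.89% of all genes. The 4 and 3 members at 48 h are 9.30% and 6.98% of the 43, the 6 and 13 at 72 h are 13.95% and 30.2%, and the 10 and 9 at 240 h are 23.3% and 20.9%. The median log2 fold change of the members lay near that of all genes each time, at 0.03 against 0.01 at 48 h, -0.05 against 0.01 at 72 h and 0.02 against 0.00 at 240 h. The median size of the change, with its sign left out, was 0.33 against 0.17, 0.49 against 0.29 and 0.36 against 0.21. Members thus moved in both directions, and 24 (55.8%) were called in at least 1 of the 3 comparisons, against 31.6% of all genes tested. The members were chosen with earlier results of these data known, so these shares do not test whether members change more than other genes.

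**Figure D1:**
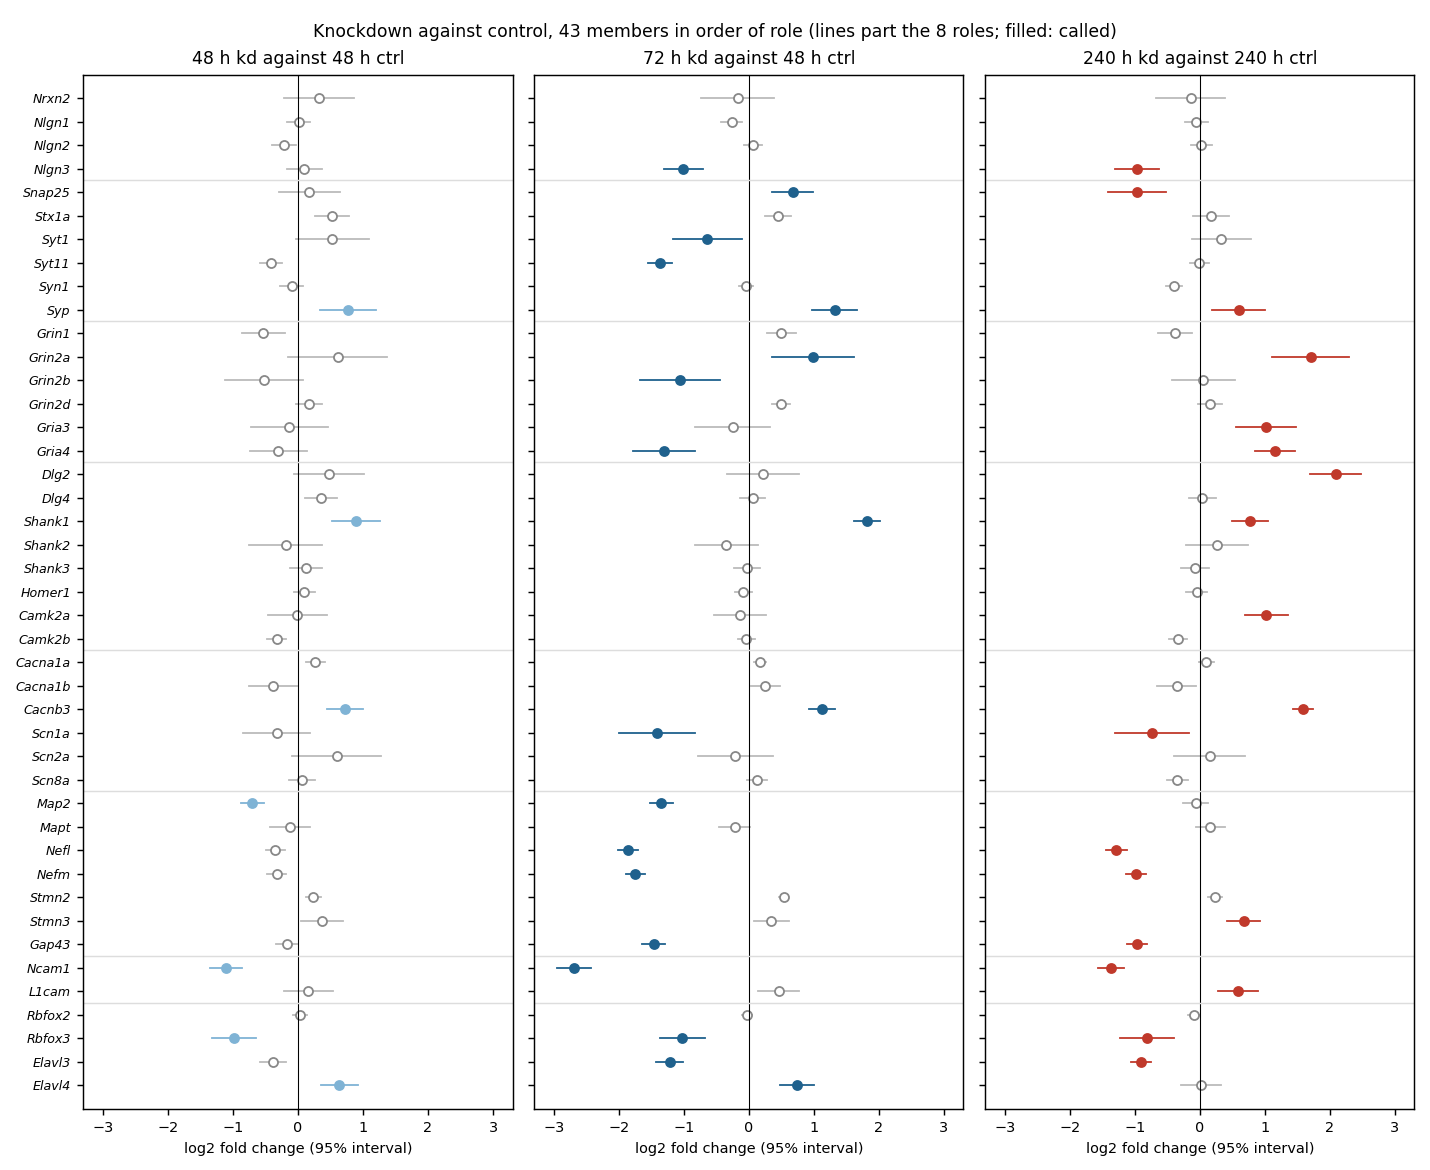
Log2 fold change with its 95% interval (x axis) of the 43 followed members (y axis, in order of role, with grey lines between the 8 roles) in the 3 knockdown comparisons, with called members as filled points. At 72 h the filled points lie mostly to the left of 0 (13 lower, 6 higher), and at 240 h they are spread to both sides (9 lower, 10 higher).

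The calls repeated over time for 5 members. Syp, Shank1 and Cacnb3 were higher in all 3 comparisons, and Ncam1 and Rbfox3 were lower in all 3, against 1.70% and 2.17% of all genes tested. The 48 h and 72 h comparisons share their control libraries. A further 2 members, Snap25 and Gria4, were called in opposite directions at 72 h and 240 h. The share of all genes called in opposite directions was not counted, so this number has no background beside it. Promoter sequences of 4 of these 7 are shown, since they are the members whose calls stayed on 1 side or turned, and 31 of the 49 members matched a promoter in the RefSeq table (build GRCm38.p6). Each window runs from 250 bases before to 50 bases after an annotated start, 5′ to 3′ on the strand of the gene, and where a gene has several starts the window nearest to the 5′ end of its listed span was taken. Capitals mark the GC box GGGCGG or its reverse complement.
Syp (chrX:7638330-7638629, plus strand): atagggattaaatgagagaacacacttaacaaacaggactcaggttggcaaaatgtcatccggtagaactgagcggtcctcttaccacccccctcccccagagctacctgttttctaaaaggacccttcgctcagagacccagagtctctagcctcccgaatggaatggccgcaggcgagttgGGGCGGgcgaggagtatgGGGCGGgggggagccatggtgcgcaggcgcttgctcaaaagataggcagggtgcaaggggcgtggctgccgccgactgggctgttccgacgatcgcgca
Gria4 (chr9:4796185-4796484, minus strand): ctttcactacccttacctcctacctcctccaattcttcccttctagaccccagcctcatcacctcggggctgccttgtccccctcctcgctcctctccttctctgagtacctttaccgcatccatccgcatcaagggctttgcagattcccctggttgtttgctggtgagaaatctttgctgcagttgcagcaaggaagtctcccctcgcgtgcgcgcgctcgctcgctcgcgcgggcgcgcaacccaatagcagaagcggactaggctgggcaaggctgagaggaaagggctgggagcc
Cacnb3 (chr15:98632078-98632377, plus strand): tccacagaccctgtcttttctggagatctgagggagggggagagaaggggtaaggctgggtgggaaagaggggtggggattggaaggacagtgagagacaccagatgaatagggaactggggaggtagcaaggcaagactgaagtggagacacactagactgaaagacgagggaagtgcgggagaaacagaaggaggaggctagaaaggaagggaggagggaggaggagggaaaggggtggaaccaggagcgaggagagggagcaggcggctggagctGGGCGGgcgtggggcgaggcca
Rbfox3 (chr11:118760992-118761291, minus strand): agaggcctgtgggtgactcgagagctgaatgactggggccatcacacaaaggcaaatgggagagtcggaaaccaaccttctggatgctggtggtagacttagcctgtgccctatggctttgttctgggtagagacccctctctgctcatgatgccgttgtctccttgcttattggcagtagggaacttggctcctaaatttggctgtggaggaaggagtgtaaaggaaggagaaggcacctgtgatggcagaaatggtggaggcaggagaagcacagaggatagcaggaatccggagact
The window of Syp held 2 GC boxes and that of Cacnb3 held 1, and the windows of Gria4 and Rbfox3 held none. Over the 31 matched members, 14 windows held a GC box on either strand, beside 35.7% of all 32851 windows in the table. The left and right parts of the REST binding site, CAGCACC and GGACAGC, were found on either strand in the windows of 1 member (Syn1) and 2 members (Gria2 and Map2), beside 7.14% and 6.56% of all windows, and the TATA box TATAAA in 2 (Dcx and Elavl3), beside 13.6%. The 4 windows shown held none of these 3 further motifs, and the 2 GC boxes of Syp do not overlap. The ratio of observed to expected CpG in the windows had a median of 0.666 over members and 0.384 over all windows. It was 0.696 for Syp, 0.662 for Gria4, 0.392 for Cacnb3 and 0.205 for Rbfox3, whose window lies 150556 bases inside the listed span. Entries were not found for Ncam1, Shank1 and Snap25.

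Among the genes of trans-synaptic adhesion, 1 of 4 followed members changed. Neurexins on the presynaptic side bind neuroligins on the postsynaptic side. Nlgn3, a neuroligin found at excitatory and inhibitory synapses (ENSMUSG00000031302.16, chrX:101299168-101325963), stood at 6.85, 7.94 and 8.13 RPM in the 48 h ctrl libraries, 8.07, 7.93 and 8.49 in 48 h kd and 3.83, 3.16 and 4.07 in 72 h kd. At the late time the values were 7.40, 8.12 and 7.66 in the 240 h ctrl and 4.17, 2.89 and 4.63 in the 240 h kd libraries. At 48 h the groups overlapped, and at 72 h and at 240 h every knockdown library lay below every control library, with means at 48.2% and 50.5% of the control. The log2 fold change was 0.10 ± 0.12 (SE, adjusted p = 0.613) at 48 h, -1.01 ± 0.15 (SE, adjusted p = 2.05e-06) at 72 h and -0.97 ± 0.16 (SE, adjusted p = 0.000105) at 240 h. The same strand holds Gm21986, a transcript that shares 22181 bases with Nlgn3 and had a mean of 331 reads. Its log2 fold changes were 0.33, 0.39 and 0.09 at the 3 times, of another direction than those of Nlgn3 at 72 h and 240 h. Nrxn2, Nlgn1 and Nlgn2 were called at no time, with log2 fold changes between -0.27 and 0.32.

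Of the 6 followed members of the vesicle and release machinery, 1 was called higher at 48 h, 2 higher and 2 lower at 72 h, and 1 in each direction at 240 h. Syp, synaptophysin, an abundant membrane protein of synaptic vesicles (ENSMUSG00000031144.15, chrX:7638471-7653256), stood at 3.72, 2.35 and 2.56 RPM in the 48 h ctrl libraries, 4.34, 5.80 and 4.88 in 48 h kd and 6.56, 7.85 and 7.91 in 72 h kd. In the later pair of groups it was at 2.73, 2.84 and 1.88 in the 240 h ctrl and 3.19, 4.20 and 4.19 in the 240 h kd libraries. The knockdown libraries lay above the control libraries at all 3 times, with means 1.74-fold, 2.59-fold and 1.55-fold those of the controls. The log2 fold changes were 0.77 ± 0.20 (SE, adjusted p = 0.0124), 1.32 ± 0.17 (SE, adjusted p = 2.52e-07) and 0.60 ± 0.19 (SE, adjusted p = 0.0182). The calls at 48 h and 240 h are near the threshold: adjusted p rose to between 0.0547 and 0.0639 without 48 h ctrl replicate 2 or 3, and to between 0.0724 and 0.0775 without 240 h ctrl replicate 3, 240 h kd replicate 2 or 240 h kd replicate 3. An antisense transcript, Gm14703, shares 2151 bases with Syp and had 71.0% as many reads, with log2 fold changes of 0.85, 1.28 and 0.52. Without strand, the reads of this pair cannot be told apart.

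Snap25, a SNARE protein that drives vesicle fusion (ENSMUSG00000027273.13, chr2:136713453-136782428), turned direction. It stood at 3.94, 4.15 and 3.62 RPM in the 48 h ctrl libraries, 3.13, 6.40 and 4.33 in 48 h kd and 6.09, 7.45 and 5.65 in 72 h kd. The 240 h values were 3.62, 3.57 and 2.42 in the 240 h ctrl and 1.52, 1.24 and 1.76 in the 240 h kd libraries. The 48 h kd libraries lay on both sides of the controls, the 72 h kd libraries all above them and the 240 h kd libraries all below theirs. The log2 fold change was 0.67 ± 0.15 (SE, adjusted p = 0.000446) at 72 h and -0.97 ± 0.21 (SE, adjusted p = 0.00132) at 240 h, and 0.18 at 48 h (95% interval -0.30 to 0.65). Without 72 h kd replicate 2 the change at 72 h was 0.56 (adjusted p = 0.00676), under the fold required for a call.

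The synaptotagmins, calcium sensors and regulators of vesicle traffic, had their calls at 72 h. Syt11 (ENSMUSG00000068923.14, chr3:88744700-88775164) stood at 27.8, 27.3 and 26.8 RPM in the 48 h ctrl libraries, 20.5, 21.8 and 19.0 in 48 h kd and 9.53, 10.4 and 11.6 in 72 h kd. Later it stood at 29.9, 29.2 and 33.0 in the 240 h ctrl and 31.5, 29.6 and 30.3 in the 240 h kd libraries. The 48 h and 72 h knockdown libraries all lay below the controls, the latter at 38.4% of the control mean, and the 240 h groups overlapped. The log2 fold changes were -0.42 ± 0.08 (SE, adjusted p = 0.00202), -1.36 ± 0.09 (SE, adjusted p = 1.03e-12) and -0.01 ± 0.07 (SE, adjusted p = 0.913). Syt1, the calcium sensor of fast release, stood at 1.60, 1.62 and 3.36 RPM in the 48 h ctrl libraries, 2.69, 2.98 and 3.70 in 48 h kd and 1.17, 1.54 and 1.05 in 72 h kd. At 240 h it reached 1.37, 1.71 and 1.25 in the 240 h ctrl and 2.05, 1.86 and 1.69 in the 240 h kd libraries. The third 48 h control library lay within the range of the 48 h kd libraries and above the other two controls. The change at 72 h was -0.64 ± 0.26 (SE, adjusted p = 0.0340), which became -0.32 (adjusted p = 0.299) without 48 h ctrl replicate 3 and -0.17 (adjusted p = 0.539) against 240 h ctrl. The call was also lost without 72 h kd replicate 1 or 3 (adjusted p = 0.0764 and 0.107).

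Syn1, synapsin I, which tethers vesicles to the cytoskeleton, was called at no time. It stood at 50.7, 46.5 and 50.4 RPM in the 48 h ctrl libraries, 51.5, 41.4 and 45.4 in 48 h kd and 49.0, 46.8 and 47.0 in 72 h kd. In the 240 h cells it lay at 51.5, 50.01 and 49.7 in the 240 h ctrl and 36.8, 39.7 and 38.2 in the 240 h kd libraries. The 240 h groups did not overlap, and the change there was -0.40 ± 0.06 (SE, adjusted p = 2.68e-05), smaller than the fold required. Timp1, an inhibitor of matrix proteases on the opposite strand inside Syn1, held 43.6% of the reads counted for Syn1, and with these taken off the change at 240 h was -0.46 ± 0.07 (SE, adjusted p = 6.93e-05). Stx1a, a SNARE of the presynaptic membrane, had changes of 0.52, 0.44 and 0.17, under the fold required.

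The glutamate receptor subunits were called in both directions at 72 h and only upwards at 240 h. Of 6 followed members, none was called at 48 h, 1 was higher and 2 lower at 72 h, and 3 were higher and none lower at 240 h. With 8.92% of all genes tested called higher and 7.89% lower at 240 h, the lack of lower calls among 6 genes is no result about the role. Ionotropic glutamate receptors carry most fast excitatory transmission, the AMPA type built from Gria and the NMDA type from Grin subunits. Gria4 (ENSMUSG00000025892.16, chr9:4417896-4796234) stood at 3.65, 2.71 and 2.47 RPM in the 48 h ctrl libraries, 2.08, 2.73 and 2.17 in 48 h kd and 0.859, 1.38 and 0.904 in 72 h kd. For the late groups the levels were 3.54, 3.98 and 2.97 in the 240 h ctrl and 8.27, 7.37 and 8.59 in the 240 h kd libraries. The 72 h kd libraries lay below all controls and the 240 h kd libraries above all of theirs, at 35.6% of the control mean and at 2.31-fold. The log2 fold changes were -0.30 ± 0.21 (SE, adjusted p = 0.313), -1.30 ± 0.23 (SE, adjusted p = 2.62e-05) and 1.16 ± 0.15 (SE, adjusted p = 4.91e-06). Both calls held when any 1 library was left out.

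Gria3 (ENSMUSG00000001986.16, chrX:41400854-41678601) was called at 240 h alone. It stood at 2.04, 2.07 and 0.971 RPM in the 48 h ctrl libraries, 1.30, 1.62 and 1.44 in 48 h kd and 1.95, 1.38 and 0.828 in 72 h kd. Its later values were 1.13, 1.30 and 2.11 in the 240 h ctrl and 3.41, 2.89 and 3.38 in the 240 h kd libraries. The groups overlapped at 48 h and 72 h, and at 240 h every knockdown library lay above every control library, with a change of 1.02 ± 0.22 (SE, adjusted p = 0.00114).

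Grin2a, an NMDA receptor subunit of the mature forebrain (ENSMUSG00000059003.12, chr16:9567898-9995560), rose. It stood at 0.948, 1.08 and 0.265 RPM in the 48 h ctrl libraries, 1.13, 1.45 and 0.993 in 48 h kd and 1.80, 1.78 and 1.28 in 72 h kd. At the late time the values were 0.884, 0.325 and 0.938 in the 240 h ctrl and 3.11, 2.20 and 3.01 in the 240 h kd libraries. These are 3 to 41 reads per library. The groups overlapped at 48 h and did not at 72 h and 240 h, where the changes were 0.98 ± 0.31 (SE, adjusted p = 0.00742) and 1.71 ± 0.28 (SE, adjusted p = 8.81e-05). The call at 72 h rests on the low 48 h ctrl replicate 3, without which the change was 0.55 (adjusted p = 0.0766). Grin2b, the NMDA subunit prominent in the embryonic brain (ENSMUSG00000030209.14, chr6:135713233-136173511), was lower at 72 h alone. It stood at 0.875, 1.17 and 0.971 RPM in the 48 h ctrl libraries, 0.608, 0.853 and 0.451 in 48 h kd and 0.313, 0.243 and 0.527 in 72 h kd. In the later pair of groups it was at 1.37, 1.54 and 1.25 in the 240 h ctrl and 1.52, 1.17 and 1.69 in the 240 h kd libraries. With 3 to 23 reads per library, its change at 72 h was -1.06 ± 0.30 (SE, adjusted p = 0.00344), with no overlap between the groups, and at 240 h 0.05 (95% interval -0.43 to 0.54). With a pseudocount of 1 RPM the change at 72 h was -0.56 (adjusted p = 0.00471), under the fold required. Grin1 and Grin2d were called at no time against a control, with changes between -0.54 and 0.50, both ends being those of Grin1 as listed. Of the reads counted for Grin1, the obligatory NMDA subunit, 69.6% lay in Grin1os, an antisense transcript inside it. With these taken off, its changes were -0.35, 0.22 and -0.31 (adjusted p = 0.246, 0.315 and 0.248). Without strand, reads of Grin1 itself in that stretch cannot be told from those of Grin1os and were taken off too. The span of Grin2d runs into that of Kdelr1, a highly read neighbour on the opposite strand.

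**Figure D2:**
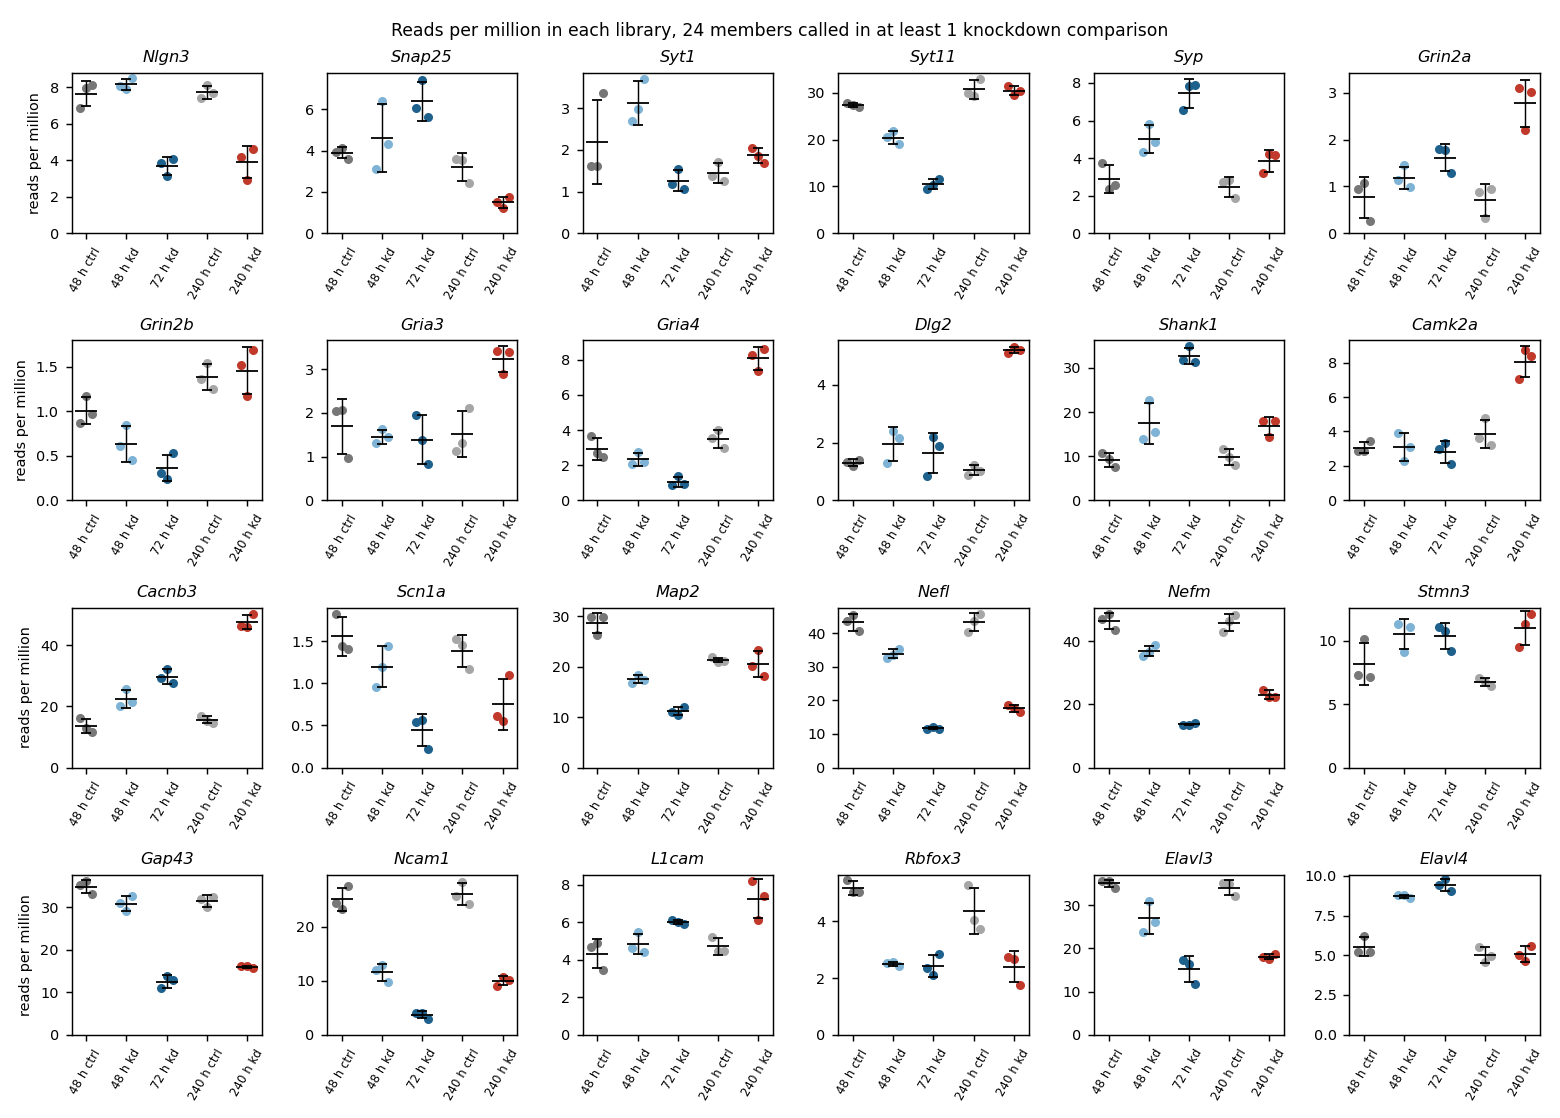
RPM (y axis, from 0) in each of the 15 libraries (points) for the 24 members called in at least 1 knockdown comparison, by group (x axis); horizontal lines and bars are the mean and SD of 3 libraries. Ncam1, Nefl and Gap43 are lowest at 72 h, and Gria4, Dlg2, Camk2a and Cacnb3 highest at 240 h, where their 3 knockdown libraries lie above all controls.

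Of the 8 followed postsynaptic scaffolds and kinases, 1 was called higher at 48 h, 1 at 72 h and 3 at 240 h, and none was called lower. Shank1, a scaffold of excitatory synapses (ENSMUSG00000038738.15, chr7:44310253-44360572), stood at 10.6, 9.29 and 7.60 RPM in the 48 h ctrl libraries, 13.98, 22.8 and 15.5 in 48 h kd and 31.9, 34.9 and 31.4 in 72 h kd. The 240 h values were 11.7, 9.74 and 7.97 in the 240 h ctrl and 18.1, 14.4 and 17.9 in the 240 h kd libraries. All knockdown libraries exceeded their controls, with means 1.90-fold, 3.57-fold and 1.72-fold as high, and 48 h kd replicate 2 was the highest of its group. The log2 fold changes were 0.89 ± 0.17 (SE, adjusted p = 0.00204), 1.82 ± 0.10 (SE, adjusted p = 4.66e-14) and 0.77 ± 0.13 (SE, adjusted p = 0.000102). A neighbour on the opposite strand, 1700008O03Rik, shares 530 bases with Shank1 and had changes of 0.37, 0.45 and 0.42.

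Dlg2, a scaffold that anchors NMDA receptors, also called PSD-93 (ENSMUSG00000052572.17, chr7:90476672-92449247), had the largest rise of the members at 240 h. It stood at 1.31, 1.17 and 1.41 RPM in the 48 h ctrl libraries, 1.30, 2.39 and 2.17 in 48 h kd and 0.859, 2.19 and 1.88 in 72 h kd. Later it stood at 0.884, 1.22 and 1.02 in the 240 h ctrl and 5.08, 5.30 and 5.21 in the 240 h kd libraries. The 3 knockdown libraries at 240 h were close together and 5.00-fold as high as the controls in the mean, with a change of 2.09 ± 0.19 (SE, adjusted p = 6.97e-08), whereas the groups overlapped at 48 h and 72 h. The span of Dlg2 is 1973 kb, with 11 to 77 reads per library, and 8.12% of these lay in other genes inside it. With those taken off, the change at 240 h was 1.97 ± 0.20 (SE, adjusted p = 2.64e-07).

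Camk2a, the alpha subunit of the calcium/calmodulin-dependent kinase of the postsynaptic density, also rose at 240 h alone. It stood at 2.84, 2.89 and 3.44 RPM in the 48 h ctrl libraries, 3.91, 2.30 and 3.07 in 48 h kd and 2.97, 3.32 and 2.11 in 72 h kd. At 240 h it reached 3.62, 4.79 and 3.20 in the 240 h ctrl and 7.06, 8.75 and 8.37 in the 240 h kd libraries. The 240 h groups did not overlap and the change was 1.02 ± 0.16 (SE, adjusted p = 4.58e-05), against -0.01 at 48 h and -0.13 at 72 h. Homer1, an adaptor that links receptors to Shank proteins, did not pass the test at any time. It stood at 38.6, 37.5 and 33.4 RPM in the 48 h ctrl libraries, 38.6, 41.2 and 37.0 in 48 h kd and 34.5, 34.2 and 34.3 in 72 h kd. In the 240 h cells it lay at 40.4, 38.3 and 32.7 in the 240 h ctrl and 33.9, 34.9 and 38.4 in the 240 h kd libraries. The 95% intervals of its change were -0.07 to 0.26, -0.22 to 0.05 and -0.22 to 0.11. The other 4 uncalled members of the role, Dlg4, Shank2, Shank3 and Camk2b, had changes between -0.35 and 0.35. Of these, Camk2b, the beta subunit of the kinase, passed the adjusted p and not the fold at 48 h, with -0.33 ± 0.07 (SE, adjusted p = 0.00422), and at 240 h, with -0.34 ± 0.07 (SE, adjusted p = 0.000491). Dlg4 did so at 48 h, with 0.35 ± 0.12 (SE, adjusted p = 0.0405).

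Calcium and sodium channels had 1 member called higher at each time, Cacnb3, and 1 called lower at 72 h and 240 h, Scn1a. Cacnb3 (ENSMUSG00000003352.14, chr15:98630840-98644529) stood at 16.0, 12.9 and 11.6 RPM in the 48 h ctrl libraries, 20.1, 25.6 and 21.5 in 48 h kd and 29.2, 32.3 and 27.5 in 72 h kd. For the late groups the levels were 17.0, 15.3 and 14.7 in the 240 h ctrl and 46.4, 46.0 and 50.3 in the 240 h kd libraries. Every knockdown library lay above every control library, and the means were 1.66-fold, 2.20-fold and 3.04-fold those of the controls. The log2 fold changes were 0.72 ± 0.13 (SE, adjusted p = 0.00109), 1.13 ± 0.10 (SE, adjusted p = 2.51e-10) and 1.59 ± 0.08 (SE, adjusted p = 1.60e-11), and no other listed gene overlaps its span.

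Scn1a, a sodium channel alpha subunit of inhibitory neurons (ENSMUSG00000064329.13, chr2:66270778-66440840), stood at 1.82, 1.44 and 1.41 RPM in the 48 h ctrl libraries, 0.955, 1.19 and 1.44 in 48 h kd and 0.547, 0.567 and 0.226 in 72 h kd. Its later values were 1.53, 1.46 and 1.17 in the 240 h ctrl and 0.607, 0.551 and 1.10 in the 240 h kd libraries. These are 3 to 25 reads per library. The groups did not overlap at 72 h and 240 h, with changes of -1.41 ± 0.28 (SE, adjusted p = 0.000128) and -0.74 ± 0.27 (SE, adjusted p = 0.0340). With the 17.7% of its reads that lie in Gm13630 inside it taken off, the changes were -1.13 ± 0.29 (SE, adjusted p = 0.00168) and -0.33 ± 0.28 (SE, adjusted p = 0.350), so that the call at 240 h was lost. That call was lost too when any of 4 libraries was left out (240 h ctrl replicate 1 or 2, 240 h kd replicate 1 or 2), with adjusted p between 0.0865 and 0.123.

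Cacna1a, the pore-forming subunit of P/Q-type calcium channels, was among the most highly read members. It stood at 85.4, 78.8 and 82.8 RPM in the 48 h ctrl libraries, 92.7, 109 and 96.5 in 48 h kd and 90.3, 97.4 and 90.5 in 72 h kd. At the late time the values were 93.6, 90.7 and 86.9 in the 240 h ctrl and 104, 92.9 and 93.9 in the 240 h kd libraries. Its changes of 0.27 ± 0.07 (SE, adjusted p = 0.00916) and 0.17 ± 0.05 (SE, adjusted p = 0.00292) at 48 h and 72 h passed the adjusted p and not the fold. Cacna1b, Scn2a and Scn8a were called at no time against a control, with changes between -0.38 and 0.59.

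Of the 7 followed cytoskeletal and growth cone genes, 1 was called lower at 48 h, 4 lower and none higher at 72 h, and 3 lower and 1 higher at 240 h, counting Nefm as listed. Over all genes tested, 10.0% were called lower at 72 h and 7.89% at 240 h. Nefl (ENSMUSG00000022055.7, chr14:68083863-68089095), a subunit of the neurofilaments that set axon calibre, stood at 43.6, 45.5 and 40.6 RPM in the 48 h ctrl libraries, 32.6, 33.7 and 35.3 in 48 h kd and 11.5, 12.1 and 11.5 in 72 h kd. In the later pair of groups it was at 40.5, 43.8 and 45.7 in the 240 h ctrl and 18.6, 17.8 and 16.5 in the 240 h kd libraries. The knockdown libraries lay below the controls at all 3 times, at 78.3%, 27.0% and 40.7% of the control mean. The changes were -0.35 ± 0.07 (SE, adjusted p = 0.00245), -1.86 ± 0.07 (SE, adjusted p = 8.60e-17) and -1.29 ± 0.07 (SE, adjusted p = 2.38e-10), of which those at 72 h and 240 h were called.

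Nefm, the neurofilament medium chain, gave nearly the same values, from reads that mostly lay within Nefl. Its listed span (ENSMUSG00000022054.11, chr14:68082590-68124846) contains the whole of Nefl on the opposite strand, and 90.1% of the reads counted for Nefm lay in Nefl. As listed, Nefm stood at 46.9, 48.5 and 43.6 RPM in the 48 h ctrl libraries, 35.4, 36.5 and 38.6 in 48 h kd and 13.6, 13.4 and 13.9 in 72 h kd. The 240 h values were 43.01, 46.4 and 48.1 in the 240 h ctrl and 24.6, 22.5 and 22.2 in the 240 h kd libraries. Its changes as listed were -1.75 ± 0.07 (SE, adjusted p = 1.05e-16) at 72 h and -0.98 ± 0.07 (SE, adjusted p = 3.47e-09) at 240 h. Outside Nefl, the reads of Nefm came to 3.28, 2.98 and 3.00 RPM in the 48 h ctrl libraries, 2.78, 2.81 and 3.25 after 48 h and 2.11, 1.30 and 2.41 after 72 h of knockdown. They came to 2.49, 2.60 and 2.42 RPM in the 240 h ctrl libraries and 5.99, 4.68 and 5.65 after 240 h of knockdown. The 240 h kd libraries were then all above their controls, and the direction at 240 h turned. The changes outside Nefl were -0.06 ± 0.17 (SE, adjusted p = 0.825) at 48 h, -0.64 ± 0.21 (SE, adjusted p = 0.0107) at 72 h and 1.04 ± 0.16 (SE, adjusted p = 4.66e-05) at 240 h, from 16 to 79 reads per library. The counts of members called above hold Nefm as listed.

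**Figure D3:**
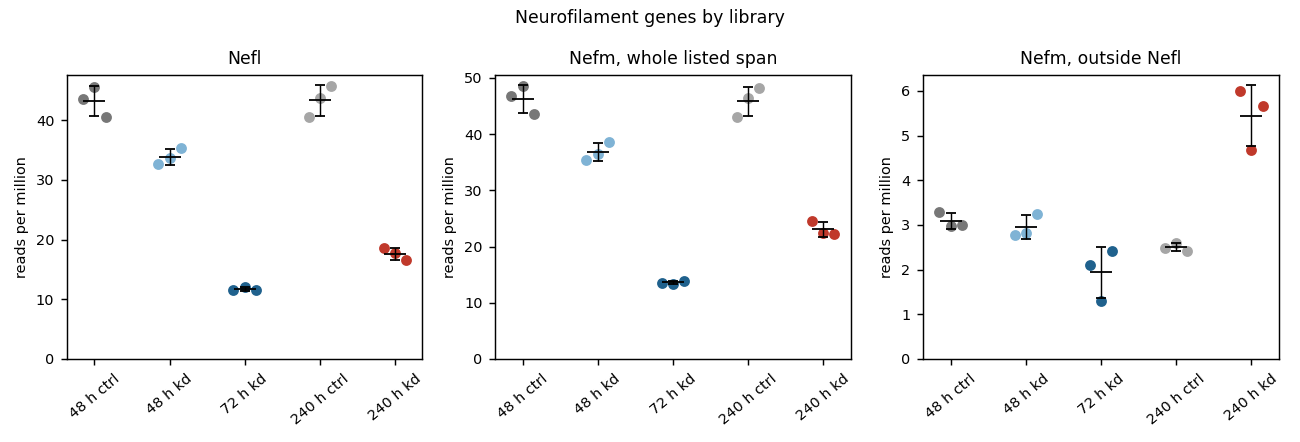
RPM (y axis, from 0, on a scale of its own in each panel) by group (x axis) for Nefl, for the whole listed span of Nefm and for the part of Nefm outside Nefl; points are libraries, lines and bars the mean and SD of 3. The first 2 panels have the same shape, and in the third the 240 h kd libraries (5.99, 4.68 and 5.65) stand above the 240 h ctrl libraries (2.49, 2.60 and 2.42).

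Map2, a microtubule-associated protein of dendrites (ENSMUSG00000015222.17, chr1:66175273-66442583), fell early. It stood at 29.7, 26.3 and 29.9 RPM in the 48 h ctrl libraries, 16.8, 18.3 and 17.4 in 48 h kd and 10.9, 10.4 and 11.98 in 72 h kd. Later it stood at 21.9, 20.9 and 21.2 in the 240 h ctrl and 20.2, 23.2 and 18.1 in the 240 h kd libraries. The 48 h and 72 h knockdown libraries lay below the controls, at 61.1% and 38.8% of the control mean, and the 240 h groups overlapped. The changes were -0.70 ± 0.08 (SE, adjusted p = 6.40e-05), -1.35 ± 0.09 (SE, adjusted p = 8.98e-13) and -0.06 ± 0.09 (SE, adjusted p = 0.592). The untreated cells themselves differed, with 240 h ctrl below 48 h ctrl in every library and a change of -0.42 ± 0.08 (SE, adjusted p = 0.00217), under the fold required.

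Gap43, a membrane protein of growing axons (ENSMUSG00000047261.9, chr16:42248442-42340651), stood at 35.3, 36.2 and 33.2 RPM in the 48 h ctrl libraries, 30.9, 29.1 and 32.7 in 48 h kd and 10.9, 13.8 and 12.8 in 72 h kd. At 240 h it reached 32.0, 30.0 and 32.5 in the 240 h ctrl and 16.1, 16.2 and 15.8 in the 240 h kd libraries. At 48 h the knockdown libraries lay just below the controls, and at 72 h and 240 h they stood far below, at 35.8% and 50.9% of the control mean. The changes were -0.17 ± 0.07 (SE, adjusted p = 0.0959), -1.47 ± 0.08 (SE, adjusted p = 1.24e-13) and -0.96 ± 0.07 (SE, adjusted p = 9.28e-09).

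Stathmins bind tubulin and destabilise microtubules. Stmn2, which had the most reads of the members, stood at 234, 252 and 241 RPM in the 48 h ctrl libraries, 290.4, 270.0 and 296 in 48 h kd and 349, 351 and 351 in 72 h kd. In the 240 h cells it lay at 259, 271 and 297 in the 240 h ctrl and 325, 329 and 317 in the 240 h kd libraries. The knockdown libraries lay above the controls at all 3 times, with changes of 0.24 ± 0.05 (SE, adjusted p = 0.00535), 0.53 ± 0.04 (SE, adjusted p = 3.80e-12) and 0.23 ± 0.05 (SE, adjusted p = 0.000817), none of which reached the fold required. Stmn3 (ENSMUSG00000027581.12, chr2:181306459-181314500) stood at 7.29, 10.1 and 7.15 RPM in the 48 h ctrl libraries, 11.3, 9.12 and 11.1 in 48 h kd and 11.1, 10.8 and 9.19 in 72 h kd. For the late groups the levels were 7.07, 6.74 and 6.41 in the 240 h ctrl and 9.48, 11.3 and 12.1 in the 240 h kd libraries. Its groups overlapped at 48 h and 72 h and did not at 240 h, where the change was 0.68 ± 0.12 (SE, adjusted p = 0.000201). Mapt, the microtubule-associated protein tau, was called at no time, with changes between -0.22 and 0.16.

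Of the neural adhesion molecules, Ncam1 fell and L1cam was slightly higher. Ncam1, the neural cell adhesion molecule (ENSMUSG00000039542.16, chr9:49502136-49798925), fell at all 3 times. It stood at 24.4, 23.2 and 27.5 RPM in the 48 h ctrl libraries, 11.98, 12.9 and 9.66 in 48 h kd and 4.06, 4.05 and 2.94 in 72 h kd. Its later values were 25.6, 28.3 and 24.2 in the 240 h ctrl and 9.03, 10.7 and 10.2 in the 240 h kd libraries. The knockdown libraries lay far below the controls, at 46.0%, 14.7% and 38.3% of the control mean. The changes were -1.11 ± 0.12 (SE, adjusted p = 2.01e-05), -2.69 ± 0.12 (SE, adjusted p = 1.64e-15) and -1.36 ± 0.09 (SE, adjusted p = 2.62e-09). An antisense transcript inside Ncam1, Gm11149, held 42.4% of its reads and had changes of -1.08, -2.48 and -1.52. As listed, the falls of Ncam1 were the largest of the members at each time. With the reads of Gm11149 taken off, the changes of Ncam1 were -1.11, -2.75 and -1.19, all called, and that at 240 h was then smaller than the -1.29 of Nefl. Without strand, reads of Ncam1 itself in that stretch cannot be told from those of Gm11149.

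L1cam, an adhesion molecule of axon growth (ENSMUSG00000031391.18, chrX:73853778-73896105), stood at 4.67, 4.87 and 3.44 RPM in the 48 h ctrl libraries, 4.60, 5.46 and 4.42 in 48 h kd and 6.09, 5.99 and 5.87 in 72 h kd. At the late time the values were 5.23, 4.47 and 4.45 in the 240 h ctrl and 8.19, 6.13 and 7.42 in the 240 h kd libraries. Only the 240 h comparison was called, at 0.59 ± 0.14 (SE, adjusted p = 0.00297), just past the fold required as listed, and leaving out any of 4 libraries (240 h ctrl replicate 2 or 3, 240 h kd replicate 1 or 3) brought it below, to between 0.50 and 0.57. Avpr2, a vasopressin receptor gene on the opposite strand inside L1cam, held 17.7% of its reads, and with these taken off the change at 240 h was 0.67 ± 0.16 (SE, adjusted p = 0.00235). The span of L1cam shares 4664 bases on the same strand with Arhgap4, a neighbour with a mean of 961 reads and changes of -0.12, -0.31 and -0.02.

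The neuronal RNA-binding proteins moved both ways. Of 4 followed members, 1 was higher and 1 lower at 48 h, 1 higher and 2 lower at 72 h, and 2 lower at 240 h. Rbfox3, a splicing factor known as NeuN, the usual nuclear marker of mature neurons (ENSMUSG00000025576.17, chr11:118489762-118911597), stood at 5.47, 5.05 and 5.03 RPM in the 48 h ctrl libraries, 2.52, 2.56 and 2.44 in 48 h kd and 2.34, 2.10 and 2.86 in 72 h kd. In the later pair of groups it was at 5.31, 4.06 and 3.75 in the 240 h ctrl and 2.73, 2.69 and 1.76 in the 240 h kd libraries. The knockdown libraries lay below the controls at all 3 times, at 48.3%, 47.0% and 54.7% of the control mean, with changes of -0.98 ± 0.16 (SE, adjusted p = 0.000588), -1.02 ± 0.17 (SE, adjusted p = 1.17e-05) and -0.81 ± 0.20 (SE, adjusted p = 0.00277). Its relative Rbfox2, which is expressed in many tissues, was called at no time and stood at 149.5, 144 and 146 RPM in the 48 h ctrl libraries, 147, 154 and 147 in 48 h kd and 148, 143 and 139 in 72 h kd. The 240 h values were 154, 152 and 149 in the 240 h ctrl and 145, 141 and 142 in the 240 h kd libraries. The 95% intervals of its change were -0.08 to 0.13, -0.11 to 0.05 and -0.18 to 0.00.

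Of the Elavl proteins, which bind AU-rich RNA in neurons, Elavl3 was called lower at 72 h and 240 h, and Elavl4 higher at 48 h and 72 h. Elavl3 (ENSMUSG00000003410.8, chr9:22015005-22052023) stood at 35.5, 35.5 and 34.1 RPM in the 48 h ctrl libraries, 23.9, 31.0 and 26.1 in 48 h kd and 17.3, 16.4 and 11.7 in 72 h kd. Later it stood at 35.2, 34.9 and 32.0 in the 240 h ctrl and 18.1, 17.6 and 18.7 in the 240 h kd libraries. The groups did not overlap at any time, and the changes were -0.38 ± 0.09 (SE, adjusted p = 0.00761), -1.22 ± 0.10 (SE, adjusted p = 1.10e-10) and -0.90 ± 0.07 (SE, adjusted p = 1.86e-08). Gm49318, on the same strand, shares 15644 bases with Elavl3 and had changes of -0.05, -0.21 and -0.33. Elavl4 (ENSMUSG00000028546.17, chr4:110203722-110351909) stood at 5.18, 6.22 and 5.21 RPM in the 48 h ctrl libraries, 8.77, 8.78 and 8.58 in 48 h kd and 9.45, 9.80 and 9.04 in 72 h kd. At 240 h it reached 5.55, 4.55 and 4.92 in the 240 h ctrl and 5.01, 4.62 and 5.58 in the 240 h kd libraries. The 48 h and 72 h knockdown libraries lay above the controls, and the 240 h groups overlapped. The changes were 0.64 ± 0.13 (SE, adjusted p = 0.00313), 0.75 ± 0.13 (SE, adjusted p = 1.57e-05) and 0.02 ± 0.15 (SE, adjusted p = 0.936).

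The remaining 14 followed members were called at no time against a control and had changes between -0.54 and 0.59 at 48 h, -0.35 and 0.50 at 72 h, and -0.38 and 0.27 at 240 h. Of these, 4, 5 and 3 had an adjusted p under 0.05 with a change under the fold required. Each of these counts holds Grin1 as listed, which passed the adjusted p at none of the 3 times with the reads of Grin1os taken off. Over the 16370 genes tested, 4225, 10067 and 7394 passed the adjusted p at the 3 times, and 1480, 3561 and 2751 of them also the fold. The 6 members under the minimum were Nrxn3, Syn2, Gria1, Gria2, Dcx and Rbfox1. Gria2, the subunit that makes AMPA receptors impermeable to calcium, had at most 1 read in a library and none in 13 of the 15. Dcx, doublecortin, a marker of young neurons, had 0 to 3 reads. Gria1 had 0 to 5 and Syn2 0 to 10 reads. Nrxn3 had 1 to 9 reads in 4 of the groups and 13 to 19 in 240 h kd, and Rbfox1 had 2 to 12 reads. These genes were not among the 43 followed, and at so few reads no fold is given for them. With no minimum of reads, 2 of the 6 were called higher against a control, Nrxn3 at 240 h (adjusted p = 0.00794) and Syn2 as listed at 72 h and 240 h (adjusted p = 0.0298 and 0.0279). Of the reads counted for Syn2, 56.7% lay in Gm17482, a gene inside it on the same strand, so reads of Syn2 itself may be among them. Timp4, a gene inside Syn2 on the opposite strand, had 45% as many reads as Syn2. With the reads in Gm17482 taken off, Syn2 had 1, 1 and 2 reads in the 240 h kd libraries against 1, 0 and 2 in 240 h ctrl, in place of 9, 8 and 10 against 2, 3 and 4. At 72 h it then had 4, 9 and 2 reads in the knockdown libraries against 1, 0 and 1 in 48 h ctrl.

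From 48 h to 72 h of knockdown, a comparison that uses no control, 3 of the 43 members were called higher and 12 lower, against 6.53% and 6.15% of all genes tested. The members lower at 72 h were Nlgn3, Syt1, Syt11, Gria4, Scn1a, Scn2a, Map2, Nefl, Nefm, Gap43, Ncam1 and Elavl3. Among the larger falls were those of Ncam1 (-1.58 ± 0.16 SE, adjusted p = 1.11e-05), Nefl (-1.51 ± 0.08 SE, adjusted p = 6.87e-08) and Gap43 (-1.29 ± 0.10 SE, adjusted p = 1.07e-06), for each of which the groups did not overlap. Nefm as listed had -1.42, and outside Nefl -0.58 ± 0.22 (SE, adjusted p = 0.0523), which was not called. Shank1 rose, with 0.93 ± 0.14 (SE, adjusted p = 0.000195), and so did Cacna1b, the pore of N-type calcium channels, with 0.63 ± 0.16 (SE, adjusted p = 0.00743). Grin1 had 1.03 ± 0.15 (SE, adjusted p = 0.000124) as listed, and 0.56 ± 0.19 (SE, adjusted p = 0.0322) with the reads of Grin1os taken off, no longer past the fold. With the reads of all nested genes taken off, 2 members were called higher and 10 lower, the third call lost being that of Scn2a, whose adjusted p lay at the threshold with and without them. The median over the members was -0.12, against 0.01 for all genes.

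Between the untreated groups, 240 h ctrl against 48 h ctrl, none of the 43 members was called by limma, while 1.33% of all genes tested were. An unadjusted p under 0.05 in limma was found for 7 of the 43 members and for 4606 of the 16370 genes tested. With limma voom no member was called either. Without the fold required, 3 of the 43 members passed the adjusted p, beside 2074 of the 16370 genes tested. The fitted differences ran from -0.47 for Syt1 to 0.38 for Grin2b, with a median size of 0.14 against 0.13 for all genes.

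Whether the effect of the knockdown differed between 240 h and 48 h, each against its own control, was tested with an interaction term in 1 fit of the 4 groups. The effect was called higher at 240 h than at 48 h for 6 members and lower for 6, against 5.49% and 5.03% of all genes tested. The members with the higher effect at 240 h were Dlg2 (1.61 ± 0.30 SE, adjusted p = 0.000722), Gria4 (1.46 ± 0.24 SE, adjusted p = 0.000287), Gria3 (1.15), Camk2a (1.03), Cacnb3 (0.86) and Map2 (0.64). The call of Gria3 was lost on leaving out any 1 of 8 libraries. Of the others, Cacnb3 rose at both times and more at 240 h, and Map2 fell at 48 h and was close to its control at 240 h. The members with the lower effect at 240 h were Snap25 (-1.14 ± 0.32 SE, adjusted p = 0.0153), Nlgn3 (-1.06 ± 0.21 SE, adjusted p = 0.00119), Nefl (-0.94), Gap43 (-0.79), Nefm as listed (-0.65) and Elavl4 (-0.62). Outside Nefl, the interaction of Nefm was 1.10 ± 0.21 (SE, adjusted p = 0.00114), in the other direction. For the 3 genes Shank1, Syp and Ncam1 the interaction was -0.12 (95% interval -0.62 to 0.39), -0.17 (-0.77 to 0.43) and -0.25 (-0.58 to 0.07). These 2 comparisons share no library, and over the 43 members their log2 fold changes had a Pearson r of 0.57, against 0.50 over all genes tested. The points are genes measured in the same libraries and are not independent.

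**Figure D4:**
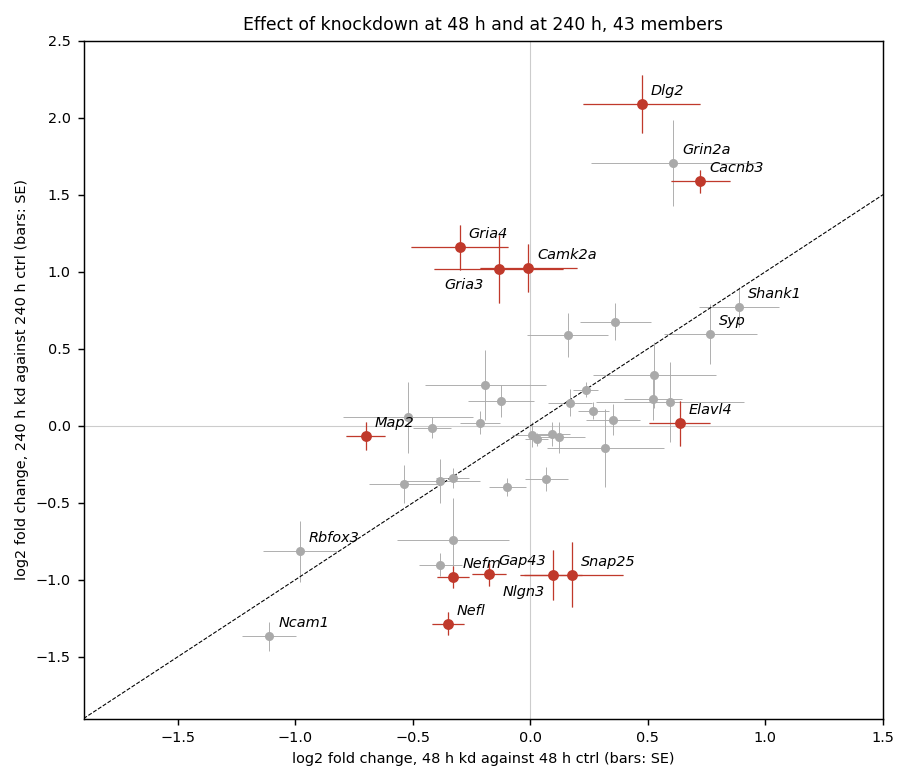
Log2 fold change at 48 h (x axis) and at 240 h (y axis), each against its own control, for the 43 members with SE bars; red points are the 12 members called in the interaction and the dashed line marks equal effects. Dlg2, Gria3, Gria4 and Camk2a lie above the line and were not called at 48 h, and Nefl, Gap43, Nlgn3 and Snap25 lie below it.

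The size of the change was also set beside length and depth. Over the 43 members the Spearman correlation of the absolute log2 fold change with gene span was -0.01, -0.10 and -0.03 at the 3 times, and with mean reads -0.27, -0.15 and -0.22. The called members had a median of 72.5 reads per library and the uncalled 262, and 9 of the 24 called had a mean under 50 reads.

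Other genes of the same functions were counted in lists of their own. Of 125 further neuronal genes in 6 lists, 98 could be tested, and 5 were called higher and 14 lower at 48 h, 16 and 28 at 72 h, and 15 and 19 at 240 h, with medians of -0.01, -0.15 and -0.14. Over all genes tested, 4.26% and 4.78%, 11.7% and 10.0%, and 8.92% and 7.89% were called higher and lower at these times. Further release machinery (22 of 25 tested) had no call at 48 h, 3 higher and 1 lower at 72 h and 4 lower at 240 h. In it Syt4, a synaptotagmin of peptide vesicles, had log2 fold changes of -0.01, -0.92 and -1.39 at 48 h, 72 h and 240 h, Cplx2, a complexin that clamps the SNARE complex, 0.35, 1.13 and 0.22, and Dnm1, the dynamin of vesicle retrieval, 0.02, 1.09 and -0.31. Genes of transmitter synthesis and transport (7 of 11 tested) were 2 higher and 5 lower at 48 h, 2 and 4 at 72 h, and 1 and 3 at 240 h. Gad1, which makes GABA, had -0.95 (called) and -0.38 at 48 h and 72 h and a called fall at 240 h, and Ddc, which makes dopamine and serotonin, -0.81, -1.25 and -1.84.

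Further receptors and postsynaptic genes (19 of 30 tested) were 1 higher and 2 lower at 48 h, 2 and 3 at 72 h, and 4 and 3 at 240 h. Homer3, a relative of Homer1, had 0.96, 1.55 and 1.03 and Dlgap3, a scaffold that binds Shank proteins, -0.61, -0.71 and -1.71. Grin2c, an NMDA subunit, is among those counted as higher at 72 h and 240 h, but it met the minimum of reads only through 240 h kd (a mean of 9.67 reads over the other groups), so its call at 240 h is no independent result. Further voltage-gated channels (19 of 24 tested) were 1 higher at 48 h, 5 higher and 6 lower at 72 h, and 7 higher and 1 lower at 240 h. Scn3b, a beta subunit of sodium channels, had 1.78, 2.66 and 1.15, called higher each time.

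Further cytoskeletal genes (20 of 22 tested) were 1 higher and 7 lower at 48 h, 2 and 13 at 72 h, and 2 and 7 at 240 h. Dpysl3, a collapsin response mediator of growth cones, had -1.37, -2.73 and -2.38, Tubb4a, a neuronal tubulin, -1.50, -1.54 and -1.05, and Nefh, the neurofilament heavy chain, -0.46, -1.36 and -0.21. Further RNA-binding proteins (11 of 13 tested) had no call at 48 h, 2 higher and 1 lower at 72 h, and 1 in each direction at 240 h. Elavl2 had -0.56, -0.70 and -0.97 and Msi1, a protein of neural progenitors, 0.42, 1.33 and -0.06. Khdrbs2, a splicing factor, is the 1 counted as higher at 240 h, and it too met the minimum only through 240 h kd (a mean of 8.33 reads over the other groups). REST and its cofactors (10 of 10 tested) had no call at any of the 3 times, with medians of -0.11, -0.22 and -0.18. Their summed level was 2298 to 2316 RPM at 48 h and 2355 to 2406 RPM at 240 h in untreated cells. With the knockdown it was 2118 to 2197 RPM at 48 h, 1928 to 1957 at 72 h and 2050 to 2135 at 240 h.

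Markers of other cells were counted in the same way. Over all genes tested, the shares called higher and lower were 4.26% and 4.78% at 48 h and 11.7% and 10.0% at 72 h. At 240 h they were 8.92% and 7.89%. The proneural and neuronal transcription factors (3 of 12 tested) had sums of 22.1 to 27.3 RPM (48 h) and 22.1 to 25.6 RPM (240 h) without doxycycline. After 48 h, 72 h and 240 h of knockdown the sums were 45.1 to 47.3, 31.4 to 34.9 and 50.6 to 51.7 RPM. Insm1, a factor of neural and endocrine progenitors, had 1.55, 1.02 and 2.24, Neurod1 0.88, 0.34 and 0.71 and Eomes -0.68, -0.38 and -0.99, and the other 9 stood below 10 reads. The pluripotency markers (10 of 10 tested) had 1 call lower at 48 h, 1 in each direction at 72 h and 3 lower at 240 h, with Klf4 at -0.87, -0.76 and -1.21, Dppa5a at 0.39, 1.04 and 0.23 and Esrrb at -0.16, -0.14 and -0.80. The primitive endoderm markers (6 of 8 tested) had 1 call lower at 48 h, 1 lower at 72 h, and 4 higher and 1 lower at 240 h, and their sum was 119.9 to 142 RPM in the untreated 240 h cells, 223 to 231 RPM after 240 h of knockdown and between 115 and 137 RPM in the other 3 groups. Gata6 had -0.25, 0.42 and 1.00 and Sox7 -1.54, -2.68 and -1.16, and Sox17 and Foxa2 stood below 10 reads.

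The fibroblast markers (4 of 8 tested) were 1 higher and 1 lower at 48 h, 2 higher and 1 lower at 72 h and 2 higher at 240 h. They summed to 8.57 to 11.7 RPM over both control groups, 8.10 to 11.2 RPM over the 48 h and 72 h knockdown libraries and 23.1 to 29.0 RPM after 240 h of knockdown, with Col1a1 at 0.70, 0.76 and 1.76, Pdgfra, which is also a primitive endoderm marker, at 0.70, 0.10 and 1.11 and Thy1, which neurons express too, at -0.90, -1.03 and -0.47. The astrocyte and oligodendrocyte markers (7 of 12 tested) had 1 call lower at 48 h, 4 higher and 1 lower at 72 h and 1 in each direction at 240 h, and their sums were 45.2 to 49.6 RPM (48 h) and 40.5 to 48.0 RPM (240 h) in untreated cells. With the knockdown they were 43.6 to 46.9 RPM at 48 h, 54.1 to 62.1 at 72 h and 29.9 to 36.5 at 240 h. In them Aldh1l1 had -0.30, 1.62 and -0.01, Mog 0.34, 1.43 and -0.55 and Sox10 0.58, 1.24 and 0.83. These genes were named for the size of their changes, and each was called higher at 72 h. The calls lower were those of other markers, which are not reported here. No marker of any list was at 0 in every library. Whether cells of these types were present, and their part in the changes of the 43 members, was not tested.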

How the data were processed

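Single-end reads were aligned by the authors with STAR 2.7.0c to mm10 (GRCm38.p6), per the labels, and the authors tested counts with DESeq2 1.30.0 in R 4.0.3. The authors deposited FPKM values, 1 per gene and library. The library total was not given and was fitted as the number that makes FPKM times gene span whole. With it, 100% of values above 0 became whole reads (tolerance 0.001). Overlapping genes can share reads, and the sum over genes was 7.38% to 8.34% above the library total (11074998 to 14515300). Of the listed genes, 53297 (96.5%) matched GENCODE M21. Whether the total RNA was selected for polyadenylation is not given in the sources used here.

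Since FPKM is not a count, limma 3.58.1 (R 4.3.3; lmFit, eBayes with a trend, two-sided) was fitted on log2(RPM + 0.25), RPM being FPKM times span in kb, for the 16370 genes whose mean over libraries reached 10 reads, with only the libraries of the groups compared. The code of the fit was also run on simulated data with 200 changed genes. The simulated noise was not matched to these libraries, so the run gives no error rate for these data. Calls needed adjusted p under 0.05 and a log2 fold change beyond 0.58.

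The members and gene lists were chosen with earlier results of these data known. Values in every library are given for each member called in a knockdown comparison and the 5 uncalled members with the highest RPM; other lists are given as counts with up to 3 called genes, some of which are not reported here. The 15 pairs of libraries within groups differed beyond counting noise (chi-square per degree of freedom 1.31 to 11.2). Alternatives are given in the closing section. The removal of nested genes' reads was chosen after seeing the data, and it also takes off reads of the member itself in the shared stretch. Figures were drawn with matplotlib.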

Additional observations from a re-analysis of the deposited data

Results flagged for a closer look

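For 12 members the effect of the knockdown differed between 240 h and 48 h by the interaction term in limma. It was higher at 240 h for Dlg2 (1.61 on the log2 scale, adjusted p = 0.000722), Gria4 (1.46, adjusted p = 0.000287), Gria3 (1.15, adjusted p = 0.0308), Camk2a (1.03, adjusted p = 0.00952), Cacnb3 (0.86, adjusted p = 0.000544) and Map2 (0.64, adjusted p = 0.00120). It was lower at 240 h for Snap25 (-1.14, adjusted p = 0.0153), Nlgn3 (-1.06, adjusted p = 0.00119), Nefl (-0.94, adjusted p = 1.95e-06), Gap43 (-0.79, adjusted p = 9.61e-06), Nefm as listed (-0.65, adjusted p = 6.45e-05) and Elavl4 (-0.62, adjusted p = 0.0218). Gria3 lost its call on leaving out each of 8 libraries in turn (adjusted p 0.0532 to 0.0895), Elavl4 on leaving out each of 4 (0.0504 to 0.0609), and Map2 without 240 h kd replicate 2, where its change was 0.54.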

How the results depend on the processing

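Of the 45 calls of members at 48 h, 72 h and 240 h, all 45 were kept with a pseudocount of 0.05 RPM, centring on the median, removal of a trend with span, limma voom, 1 fit of 15 libraries and the replicate block; 39 were kept with a pseudocount of 1 RPM (not Elavl4 at 48 h, Syt1 and Grin2b at 72 h, or Syp, Scn1a and L1cam at 240 h) and 43 with no minimum of reads. The replicate numbers did not pair the libraries (correlations of deviations -0.21 to 0.19), and the replicate block gave 7, 19, 19, 15, 0 and 12 members called at 48 h, 72 h and 240 h, for 72 h against 48 h kd, between the controls and in the interaction, as without it. On log2(FPKM + 0.1) with a mean of at least 0.5 FPKM, where 11 to 13 members could be tested, the same 6 counts were 1, 5, 5, 4, 0 and 2. With a mean of at least 50 reads, where 31 could be tested, 12 were called at 72 h and 12 at 240 h. With no minimum fold, 17 were called at 48 h, 24 for 72 h against 48 h kd and 3 between the controls. Over the 16370 genes tested these counts were 4225, 6958 and 2074. With 1 library left out, the counts ran from 7 to 10, 17 to 19, 17 to 18, 14 to 16, 0 to 0 and 10 to 12, and 38 of the 45 calls were kept whichever library was left out. With 240 h ctrl as control, 19 members were called at 72 h. Over all genes the counts of 1480, 3561 and 2751 calls at 48 h, 72 h and 240 h became 456, 1548 and 1016 on log2 FPKM, 889, 2184 and 1577 with at least 50 reads, and 4225, 10067 and 7394 with no minimum fold. Centring moved the median of all genes at 72 h from 0.01 to -0.06 and the calls over all genes from 1918 higher and 1643 lower to 1605 and 1976. With no minimum of reads, which takes in the 6 members below it, 12 were called higher and 8 lower at 240 h. With the reads of nested genes taken off, the 6 counts were 7, 19, 18, 12, 0 and 12, and Nefm turned to 1.04 at 240 h and 1.10 in the interaction, because 90.1% of its reads lay in such genes. Of the followed members, 12 had a mean under 50 reads, and 6 further members lie below the minimum of reads.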
